A study of Mus musculus with 9 samples.

Results

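Avoiding (AV) mice were compared with balancing (BA) mice across the whole transcriptome of fluorescent neurons sorted from the amygdala. The comparison held 5 of the 9 mice of the series, 2 AV mice and 3 BA mice, chosen as the mice whose deposited values stand together in 1 table, and it used all 9872 genes of that table. All mice were Thy1-YFP transgenic animals, B6.Cg-Tg(Thy1-YFP)HJrs/J by name, with no treatment that set the groups apart. The Thy1 promoter of this transgene drives YFP in pyramidal neurons of the neocortex, amygdala and hippocampus and in smaller numbers of other neurons, so the sort covers the labelled cells and not every neuron of the amygdala. Phenotypes came from a conflict task in a Y-maze, in which palatable food lay in a lit white arm and standard food in a dark arm. BA mice lay at the mean of a conflict index, the change in white arm choices once the palatable food was there, and AV mice lay well under it. Tissue was taken a month after the task. The age of the mice is not given in the sources used here. Each library came from the bilateral amygdala of 1 mouse, and mice of a group were not siblings. AV mouse 2 was removed by the authors as an outlier and was not used here.

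Pyramidal neurons are the projection neurons of the amygdala. They release glutamate, and the balance between them and local inhibitory neurons shapes responses to threat and reward. Like other large neurons they spend much energy on ion pumping, and they keep dense postsynaptic scaffolds, in which CaM kinase II, glutamate receptors and scaffold proteins meet, in dendritic spines. Sorting dissociated adult brain leaves fragments of myelin and of glial processes as a known companion of neurons, so genes of oligodendrocytes, astrocytes and microglia were followed beside the neuronal ones.

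The marker genes did not match the labelled cell type well. Of 16 markers of pyramidal neurons, 13 were not among the 9872 genes analysed here, among them the vesicular glutamate transporter genes Slc17a7 and Slc17a6. Of the 3 listed, Camk2a and Nrgn were higher in AV mice, with values given below. The third, Etv1, was at 739, 1131 and 749 in BA mice and 840 and 696 in AV mice, so the groups overlapped. Of 16 markers of neurons in general 9 were not among the genes analysed either, Thy1 and Rbfox3 included. All 14 markers of oligodendrocytes, the cells that make myelin, were listed, and they supplied 4 of the 10 genes with the highest values per kb of exon. The summed values of the oligodendrocyte markers were 229180.0, 277410.0 and 225417 in BA mice and 61925 and 96894 in AV mice. Both AV mice lay under every BA mouse in this sum. The 15 listed astrocyte markers summed to 19778, 16221 and 23508 in BA mice and 40378 and 79953 in AV mice, and the 4 listed microglia markers to 418, 365 and 564 in BA mice and 1023 and 1306 in AV mice. For both of these cell types the AV mice lay above the BA mice. Red blood cell markers were not among the genes analysed here. All 12 calls among oligodendrocyte markers, by the test described below, were lower in AV mice, and the median log2 fold change was -1.90. Mbp and Mobp were not called, with values of 30055, 36589.8 and 23944 in BA mice and 17761 and 21498 in AV mice for Mbp. Of the astrocyte markers 5 rose and 0 fell, and 2 rose without BA mouse 1 or without BA mouse 2, 3 without BA mouse 3 and 11 without AV mouse 1. Without AV mouse 3, 4 rose and 1 fell. The median log2 fold change of the astrocyte markers was 0.90, with 0.38 in AV mouse 1 and 1.45 in AV mouse 3, and Ntsr2, Gjb6 and Slc7a10 had negative values (-0.20, -0.06 and -0.23) that were not called. Slc1a2, the main glutamate transporter of astrocytes, had values of 7089, 6109 and 10326 in BA mice and 23374 and 45468 in AV mice and Tmem119, a microglial surface protein, 33.5, 39.9 and 43.6 in BA mice and 263 and 156 in AV mice. In a bulk library, fewer cells of a type and less RNA per cell cannot be told apart, and what part these glial differences have in the results below was not tested.

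**Figure D1:**
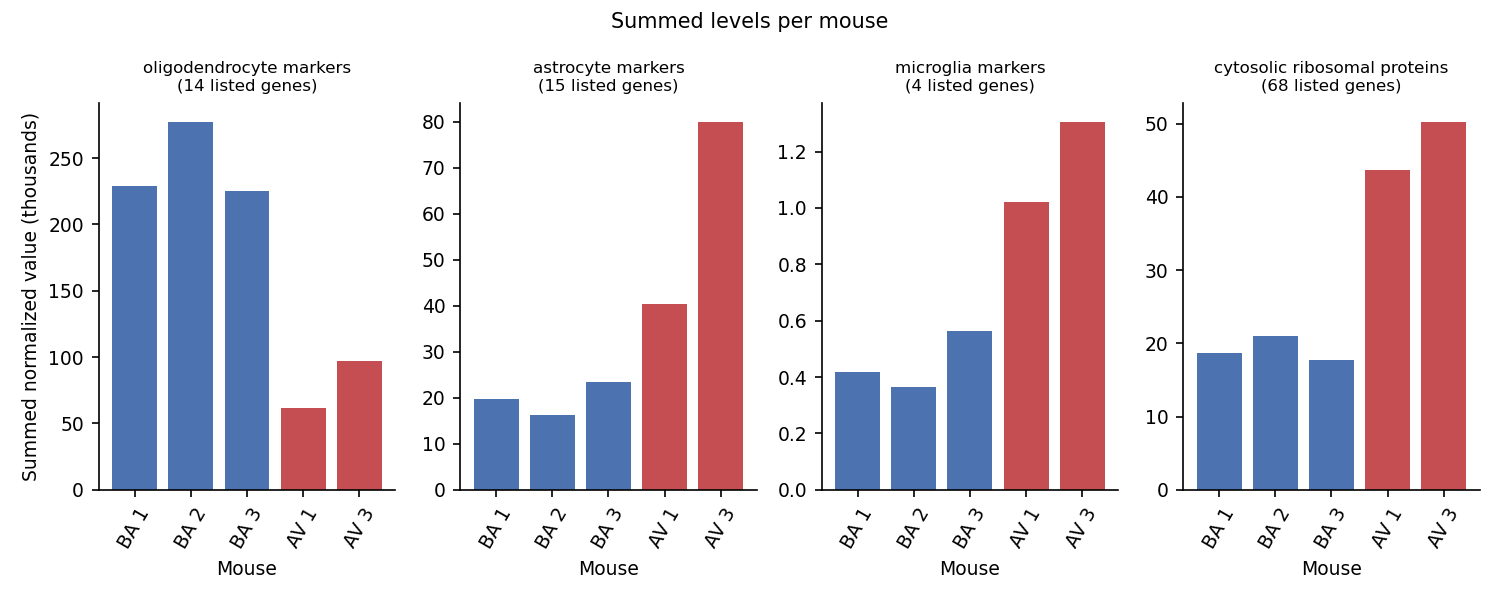
Summed normalized values (linear axis from 0, own scale in each panel) of 4 gene lists, with 1 bar per mouse, BA mice in blue and AV mice in red. Oligodendrocyte markers sum to 225417 or more in each BA mouse and to 61925 and 96894 in the AV mice, while the other 3 lists are higher in both AV mice than in every BA mouse.

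Values are a normalized signal, and each mouse summed to between 3267970 and 3974270 over the 9872 genes. These sums are not read counts, so the depth behind a value is unknown. Differences were tested with limma on log2(value + 1), positive where AV mice were higher, and a gene counted as called where its p, adjusted after Benjamini and Hochberg, was under 0.05. In counts of genes, rose and fell mean called higher and called lower in AV mice. Each mouse is a separate animal, and 2 animals stand for the AV group.

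A large share of the transcriptome differed between AV and BA mice, in both directions. The test called 2934 of the 9872 genes (29.7%), of which 1338 were higher in AV mice (13.6%) and 1596 lower (16.2%). Of these, 2323 also differed by at least 1 on the log2 scale (23.5%). The number of calls was 1593, 1521 and 1781 without BA mouse 1, 2 or 3, and 3173 and 3497 without AV mouse 1 or 3. A core of 1328 genes was called with all mice and again without each mouse in turn, 618 higher and 710 lower. The values of the groups did not overlap for 5819 genes (58.9%), 2731 with both AV mice above every BA mouse (27.7%) and 3088 with both under (31.3%). The median log2 fold change over all genes was -0.03, and the interquartile range ran from -0.61 to 0.55. Pairs of mice showed the same split. Between 2 BA mice the median absolute log2 difference was between 0.265 and 0.286, between the AV mice it was 0.378, and between an AV and a BA mouse it was between 0.617 and 0.669. A log2 difference of at least 1 was found for 3.53% to 4.22% of genes between BA mice, 15.6% between the AV mice and 30.1% to 33.4% across the groups. The AV mice were thus less alike than the BA mice, and still closer to each other than to any BA mouse.

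Differences were spread unevenly over expression levels. Genes were divided into deciles by their mean log2(value + 1) over the 5 mice. In the lowest decile 39.0% of genes were called and in the highest 41.1%, while the share in the 8 deciles between was from 24.4% to 30.8%. The direction changed along the scale. Deciles 3 to 7 held more higher than lower calls, and in decile 5 these were 150 higher and 102 lower. In the highest decile 306 of 988 genes fell and 100 rose, and relative to the BA mean the median gene stood at -0.36 in AV mouse 1 and -0.37 in AV mouse 3. Leaving out the 26 markers of any cell type in that decile, 13 of them oligodendrocyte markers, left 293 lower and 94 higher calls and a median of -0.35. In the lowest decile the median was 0.01 and 234 genes fell against 151 that rose. The interquartile range of its changes was 2.11 on the log2 scale, against 0.911 in decile 7. Low genes also varied more between mice of a group, with a median SD among BA mice of 0.314 in the lowest decile and 0.187 in the highest, and a median absolute difference between the AV mice of 0.879 and 0.221.

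**Figure D2:**
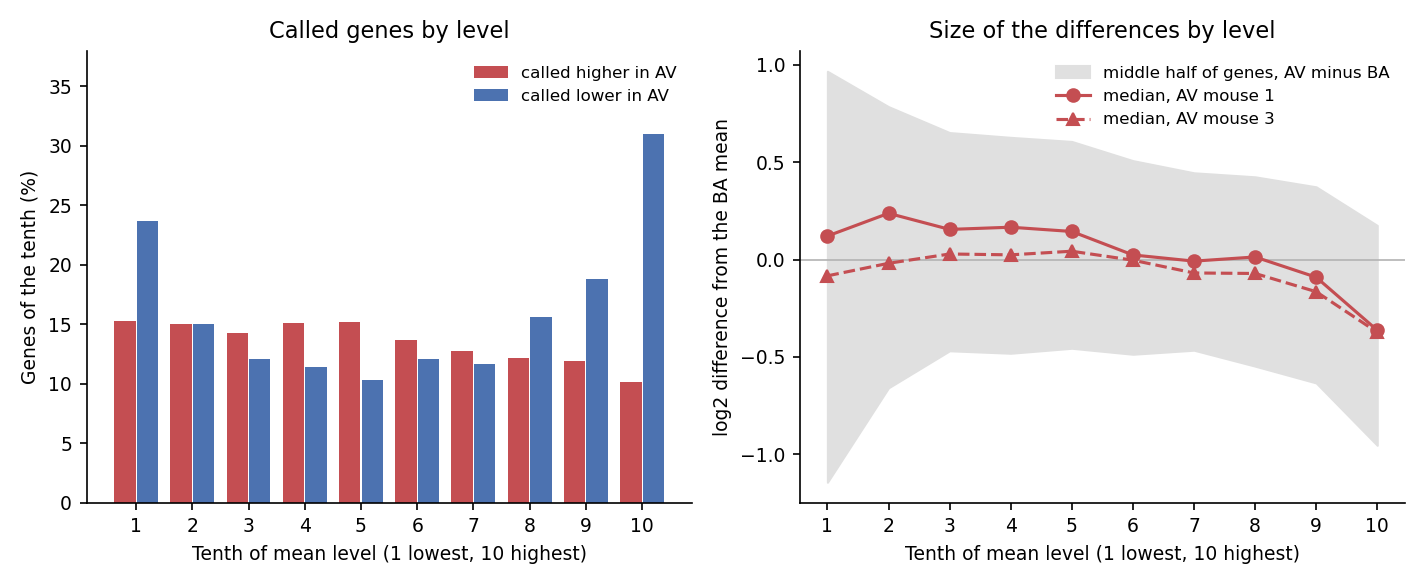
Left, share of the genes of each decile of mean level (%) called higher (red) or lower (blue) in AV mice. Right, median log2 difference of each AV mouse from the BA mean by decile, with the interquartile range of the AV minus BA changes in grey. Lower calls peak in the highest decile, at 306 of 988 genes, where both AV mice have a median near -0.36.

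The genes that separated the groups most at each level were mostly neuronal on the higher side and mixed on the lower side. They were taken as the 2 called protein-coding genes with the widest gap between groups in each direction and each quintile of mean level. All 20 kept their call without each BA mouse in turn. Genes chosen for a wide gap are apt to keep it, so this is no separate support. At the lowest level Nrgn, the postsynaptic calmodulin-binding protein neurogranin (ENSMUSG00000053310.11, chromosome 9 of GRCm38 from 37544492 to 37552904), had values of 11.7, 15.8 and 16.3 in BA mice and 129 and 131 in AV mice. Every AV value was far above every BA value, with log2 fold change 3.08 ± 0.24 (SE) and adjusted p = 0.00256 by limma. Kcnt2, a sodium-activated potassium channel, was listed at 11.8, 16.8 and 16.1 in BA mice and 147 and 229 in AV mice. In quintile 2 stood Psd, an exchange factor for the small GTPase ARF6 that lies in postsynaptic densities (ENSMUSG00000037126.16, chromosome 19 of GRCm38 from 46312087 to 46327156), with 23.4, 20.1 and 19.9 in BA mice and 252 and 394 in AV mice and a log2 fold change of 3.84. In quintile 3 Ddn, the dendritic protein dendrin (ENSMUSG00000059213.7, chromosome 15 of GRCm38 from 98803777 to 98809490), was listed at 26.2, 28.4 and 21.5 in BA mice and 479.7 and 1709.8 in AV mice. The AV mice differed among themselves here, and the log2 fold change of 5.11 was 4.20 without AV mouse 3. Dok6, an adaptor of receptor tyrosine kinases, had a log2 fold change of 4.26 and 3.60 without AV mouse 3. In quintile 4 Camk2a, the alpha subunit of CaM kinase II (ENSMUSG00000024617.16, at 60925618 to 60988152 on chromosome 18 of GRCm38), had values of 55.3, 77.3 and 68.4 in BA mice and 1656 and 2965 in AV mice, with log2 fold change 5.04 ± 0.31 (SE) and adjusted p = 0.00256 by limma. At the highest level Map2, which binds microtubules in dendrites, was listed at 819, 917 and 1154 in BA mice and 4703 and 6319 in AV mice, and Itpr1, a calcium release channel of the endoplasmic reticulum, at 271, 174 and 202 in BA mice and 1396 and 1211 in AV mice. Since the genes were chosen for the gap between groups, their separation is a description. Fam81a, of quintile 2, had a log2 fold change of 4.41.

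On the lower side the lowest quintile gave En2, a homeobox transcription factor, with 90.1, 66.7 and 58.3 in BA mice and 4.88 and 7.73 in AV mice, and Vmn2r89, a vomeronasal receptor, with 67.6, 61.9 and 95.6 in BA mice and 6.84 and 7.25 in AV mice. Both had their AV values in the single digits. In quintile 2 Tmem39a, a membrane protein of the endoplasmic reticulum, was listed at 219, 220.5 and 194 in BA mice and 9.46 and 19.4 in AV mice, with log2 fold change -3.86 ± 0.32 (SE) and adjusted p = 0.00256 by limma. Zc3h11a was at 294, 361 and 456 in BA mice and 2.22 and 1.82 in AV mice, close to the lowest values of the table, but another gene model of the same name overlaps it on the same strand, so its reads may be split and its change is uncertain. The same holds for Ptp4a1, a phosphatase gene with a log2 fold change of -2.92 and a second model on the same strand. Carns1, which makes carnosine, fell from 596, 521 and 348 in BA mice to 37.4 and 64.3 in AV mice, and its exons share bases with another model on its strand. Adamtsl4, a matrix protein of the ADAMTS-like family, had 509, 367 and 318 in BA mice and 31.5 and 60.9 in AV mice. Piga, an enzyme of the first step of GPI anchor synthesis (ENSMUSG00000031381.16, chromosome X of GRCm38 from 164419787 to 164433916), was at 463, 483 and 525 in BA mice and 74.9 and 82.2 in AV mice in quintile 4, with log2 fold change -2.63 ± 0.21 (SE) and adjusted p = 0.00256 by limma. At the highest level Enpp6, a choline phosphodiesterase of oligodendrocytes, was listed at 958, 1575 and 918 in BA mice and 93.9 and 231 in AV mice, and Sec14l5, a lipid-binding protein of the Sec14 family, at 2005, 1687 and 1202 in BA mice and 22.2 and 191 in AV mice. Their sizes depended on the AV mouse. Enpp6 had a log2 fold change of -2.91, which was -2.26 without AV mouse 1, and Sec14l5 one of -4.58, which was -3.05 without that mouse.

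**Figure D3:**
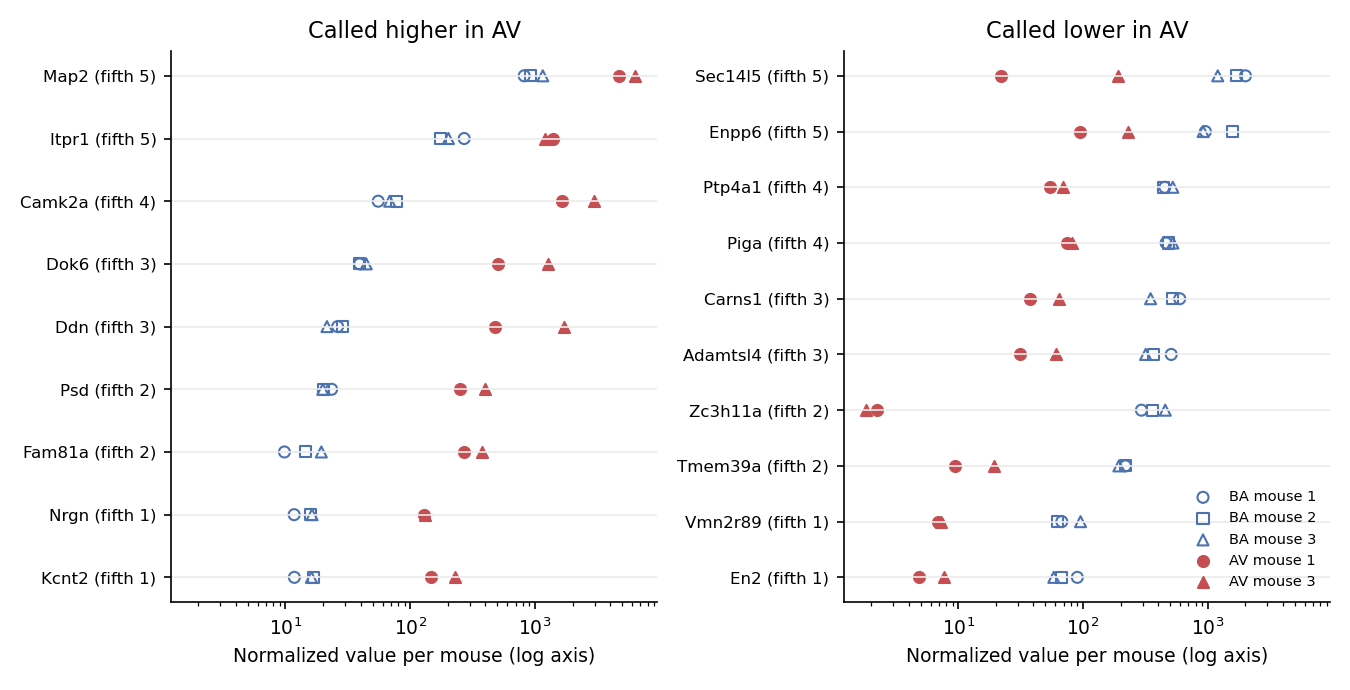
Normalized value of each mouse (log axis) for 19 of the 20 genes with the widest gap between groups in each quintile of mean level, 9 called higher (left) and 10 called lower (right) in AV mice. Open blue symbols are BA mice and filled red symbols AV mice. The genes were chosen for this gap, so the distance between the symbols of the groups follows from the choice.

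Calls among genes of the postsynaptic scaffold and of calcium/calmodulin signalling were all higher in AV mice. They made up 73.3% of the first list and 66.7% of the second, against 13.6% higher calls over all genes. Negative log2 fold changes that were not called were found for 4 scaffold genes and 1 calcium/calmodulin gene. For the scaffold, the proteins that anchor receptors under the membrane, 30 genes were listed, and 22 rose and 0 fell. The median log2 fold change was 1.44, against -0.03 over all genes. Both AV mice showed it, with medians of 1.40 in AV mouse 1 and 1.52 in AV mouse 3. Shank2, a master scaffold of the postsynaptic density (ENSMUSG00000037541.21, chromosome 7 of GRCm38 from 144001928 to 144424494), had values of 43.1, 27.2 and 37.3 in BA mice and 342 and 563 in AV mice, with log2 fold change 3.60 ± 0.32 (SE) and adjusted p = 0.00278 by limma. Of 18 genes of calcium/calmodulin signalling 12 rose and 0 fell, with a median of 1.18. Without BA mouse 1 the number was 8. Ncs1, a neuronal calcium sensor, was listed at 43.1, 33.2 and 35.1 in BA mice and 337 and 402 in AV mice. Each AV value was many times each BA value, with log2 fold change 3.28 ± 0.23 (SE) and adjusted p = 0.00256 by limma. Immediate early genes, which neurons switch on soon after activity, gave 4 higher (36.4%, against 13.6% over all genes) and 0 lower calls among 11. The number was 3, 1 and 1 without BA mouse 1, 2 or 3. Nr4a2, a nuclear receptor of this group, was at 39.8, 26.1 and 34.8 in BA mice and 193 and 113 in AV mice.

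Receptors of transmitters differed by class. GABA receptor genes numbered 7, all with both AV mice above every BA mouse, against 27.7% of all genes. Of the GABA receptor genes 5 rose (71.4%, against 13.6% over all genes), with a median log2 fold change of 1.36. The number called was 3, 1 and 4 without BA mouse 1, 2 or 3. Gabra4, an alpha subunit of the GABA-A receptor, had values of 38.6, 29.4 and 29.4 in BA mice and 115 and 134 in AV mice, with log2 fold change 1.91 ± 0.24 (SE) and adjusted p = 0.00372 by limma. Glutamate receptors were split, with 8 of 17 higher (47.1%) and 2 lower (11.8%), and 6, 7 and 6 calls without BA mouse 1, 2 or 3. Over all genes 13.6% rose and 16.2% fell. The median of the glutamate receptors was 0.69, but 0.18 in AV mouse 1 and 1.27 in AV mouse 3. Grin2b, an NMDA receptor subunit (ENSMUSG00000030209.14, chromosome 6 of GRCm38 from 135713233 to 136173511), was listed at 151, 118 and 150.4 in BA mice and 707 and 613 in AV mice, with log2 fold change 2.24 ± 0.23 (SE) and adjusted p = 0.00314 by limma. Grm4, a presynaptic metabotropic receptor, was at 7.96, 8.23 and 8.80 in BA mice and 50.3 and 55.2 in AV mice. Both rose well beyond the spread of the BA mice. Gria4, an AMPA receptor subunit, had 339, 564 and 469.5 in BA mice and 209.7 and 216 in AV mice. Its log2 fold change of -1.07 was called with all mice and not without BA mouse 2 or 3, where the limma adjusted p reached 0.0905. Of the 3 listed receptors for monoamines and acetylcholine 2 were called higher, and neither without BA mouse 1 or without BA mouse 2.

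Ion channels and the release machinery had more higher than lower calls, with exceptions. Higher calls made up 68.4% of sodium and calcium channel, 34.4% of potassium channel and 41.4% of vesicle release genes. Lower calls made up 5.26%, 12.5% and 10.3%. The shares over all genes were 13.6% higher and 16.2% lower. Of 19 voltage-gated sodium and calcium channel genes 13 rose and 1 fell, with a median of 1.35. Without BA mouse 2, 8 rose. Scn3b, a sodium channel beta subunit, was at 14.9, 17.2 and 16.7 in BA mice and 65.1 and 103 in AV mice, and Cacna1b, the pore of N-type calcium channels, at 28.7, 18.7 and 27.3 in BA mice and 125 and 104 in AV mice. The exception was Cacna2d4, an auxiliary calcium channel subunit, at 147, 203 and 231 in BA mice and 14.1 and 38.2 in AV mice. Its log2 fold change of -2.98 was -2.29 without AV mouse 1. Among 32 potassium channel genes 11 rose and 4 fell. Kcnj3, which forms the GIRK channel that G proteins open, was listed at 12, 7.36 and 8.76 in BA mice and 88.1 and 134 in AV mice, with log2 fold change 3.43 ± 0.30 (SE) and adjusted p = 0.00278 by limma. Kcna1 and Kcna6, pore subunits of Kv1 channels found in axons, fell, with 1288, 2062 and 1315 in BA mice and 559 and 359 in AV mice for Kcna1 and 1720.1, 1864 and 1679 in BA mice and 609 and 753 in AV mice for Kcna6. Potassium channel genes thus moved in both directions. Vesicle release gave 12 higher and 3 lower calls among 29 genes. Bsn, the scaffold bassoon of the active zone (ENSMUSG00000032589.14, chromosome 9 of GRCm38 from 108096022 to 108190384), had values of 83.5, 99.8 and 78.0 in BA mice and 1034 and 1729 in AV mice, with log2 fold change 3.93 ± 0.29 (SE) and adjusted p = 0.00256 by limma. Sypl, a relative of synaptophysin found also outside neurons, fell, with 976, 1366 and 1195 in BA mice and 501 and 421 in AV mice.

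G proteins and the enzymes of cyclic nucleotides were divided. Of 42 genes 17 were higher (40.5%, against 13.6% over all genes) and 6 lower (14.3%, against 16.2%). Higher calls were 10, 9 and 11 without BA mouse 1, 2 or 3. Gnal, the olfactory and striatal stimulatory G alpha subunit, had values of 39.3, 44.4 and 41.7 in BA mice and 253 and 324 in AV mice, with log2 fold change 2.75 ± 0.23 (SE) and adjusted p = 0.00256 by limma. Pde8a, a cAMP phosphodiesterase, was lower, at 1441, 1427 and 1546 in BA mice and 319 and 483 in AV mice. Neuropeptide genes were represented by 3 listed genes, of which Cpe, the carboxypeptidase that trims peptide precursors (ENSMUSG00000037852.8, chromosome 8 of GRCm38 from 64592542 to 64693054), was at 1215, 865 and 985 in BA mice and 4447 and 6947 in AV mice and Scg3, a granule protein, at 535, 441 and 801 in BA mice and 1225 and 1602 in AV mice. Both were called higher, Scg3 not without BA mouse 1 or 2 (limma adjusted p up to 0.0801). Beside these groups, 5 of the 7 listed markers of neurons in general rose and 0 fell, with a summed level of 2297, 2909 and 2658 in BA mice and 6669 and 7960.0 in AV mice. Syn1, which tethers synaptic vesicles, was at 98.0, 124 and 97.0 in BA mice and 506 and 366 in AV mice, while Elavl3, an RNA-binding protein of neurons, was at 1242, 1629 and 1271 in BA mice and 936 and 849.5 in AV mice and was not called. The part that such neuronal markers have in the synaptic lists was not tested. Of 17 markers of inhibitory neurons 2 were listed, Adarb2 and Dlx1, and neither was called.

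**Figure D4:**
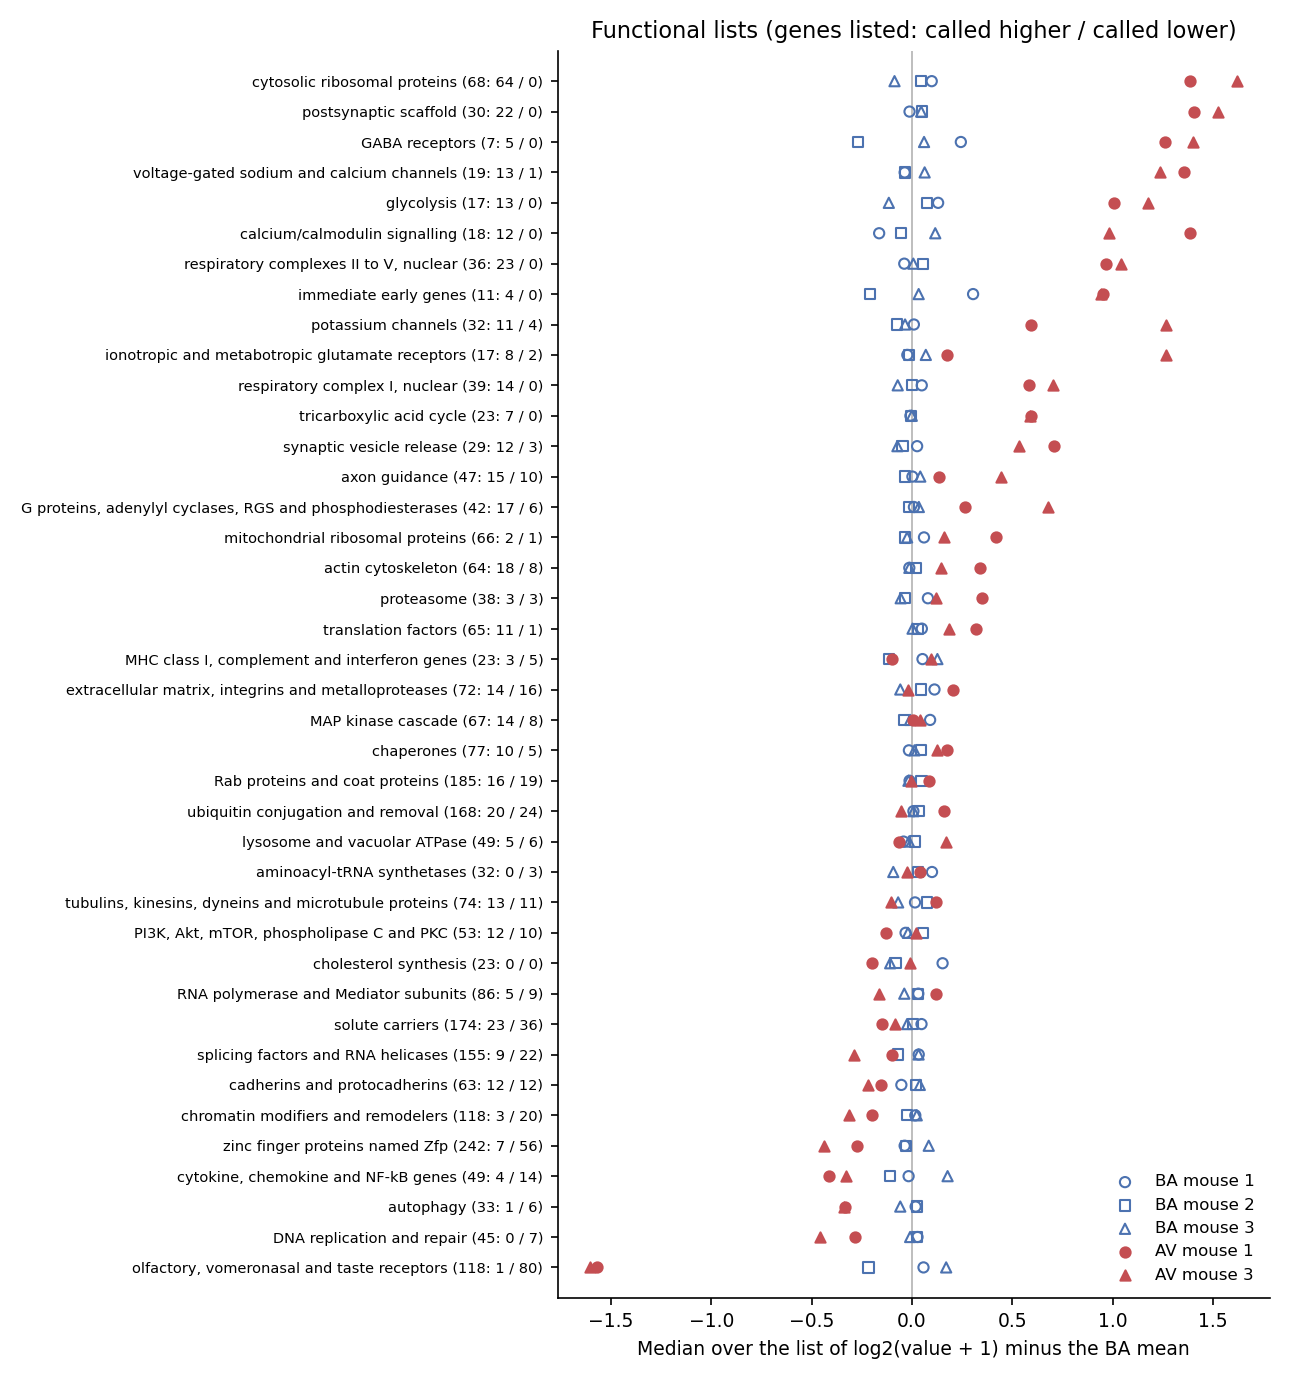
Median over each functional list with at least 5 listed genes of log2(value + 1) minus the BA mean, for each mouse, with open blue symbols for BA mice and filled red symbols for AV mice. Numbers in brackets are the genes listed, then those called higher and lower in AV mice. Ribosomal, synaptic and energy genes lie to the right in both AV mice, with a median of 1.38 and 1.62 for ribosomal proteins, and sensory receptors lie far to the left.

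Calls among energy genes were all higher in AV mice, in each of their branches. They made up 76.5% of glycolysis, 63.9% of respiratory complexes II to V, 35.9% of complex I and 30.4% of the tricarboxylic acid cycle. The share of higher calls over all genes was 13.6%. Negative log2 fold changes that were not called were found for 3 genes of complex I, 1 of complexes II to V and 4 of the tricarboxylic acid cycle. Glycolysis, the breakdown of glucose in the cytosol, was listed with 17 genes. For all 17 both AV mice lay above every BA mouse, against 27.7% of all genes. Of the glycolysis genes 13 were called, with a median log2 fold change of 1.19, and 7, 7 and 6 without BA mouse 1, 2 or 3. Eno2, the enolase of neurons (ENSMUSG00000004267.16, chromosome 6 of GRCm38 from 124760053 to 124769673), had values of 34.6, 39.9 and 33.1 in BA mice and 177 and 163 in AV mice, with log2 fold change 2.22 ± 0.22 (SE) and adjusted p = 0.00297 by limma. Aldoc, the aldolase most abundant in astrocytes, was at 610.3, 547 and 605 in BA mice and 1596 and 3361 in AV mice. So a neuronal and a glial isoenzyme were both higher. Of 36 nuclear genes of respiratory complexes II to V 23 rose and 0 fell, with a median of 1.08, and 13, 16 and 14 rose without BA mouse 1, 2 or 3. Cox6a1, a subunit of cytochrome c oxidase (ENSMUSG00000041697.8, chromosome 5 of GRCm38 from 115345642 to 115348981), was listed at 233, 210.4 and 169.6 in BA mice and 687 and 677 in AV mice, with log2 fold change 1.75 ± 0.23 (SE) and adjusted p = 0.00409 by limma. Atp5k, a subunit of ATP synthase, was at 42.8, 38.6 and 39.3 in BA mice and 129.5 and 139.8 in AV mice. Neither gene overlapped between groups. Complex I, the NADH dehydrogenase, had 14 of 39 genes higher, 8, 7 and 8 without BA mouse 1, 2 or 3, and a median of 0.68. Ndufa4 and Ndufa12 led it, with log2 fold changes of 1.61 and 1.57. Of 23 genes of the tricarboxylic acid cycle 7 rose, 3, 3 and 2 without BA mouse 1, 2 or 3. Suclg2, a subunit of succinyl-CoA ligase, was at 41.8, 27.0 and 43.3 in BA mice and 155 and 178 in AV mice. The mitochondrial genome itself was represented by 2 genes. Transcripts of mt-Co3, cytochrome c oxidase subunit III, took between 0.198% and 0.417% of all summed values in BA mice, and 2.17% and 1.58% in AV mice, with log2 fold change 2.49 ± 0.35 (SE) and adjusted p = 0.00460 by limma. The other, mt-Nd6, lies on the opposite strand and was at 691, 784 and 1030.0 in BA mice and 4333 and 2971 in AV mice. The values of these 2 genes were thus several times higher in both AV mice, and do not measure the whole mitochondrial share. The part of mitochondrial content in the energy lists was not tested.

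Cytosolic ribosomal protein genes had the highest share of calls among the functional lists of at least 5 genes, 94.1%. Of 68 genes 64 rose and 0 fell, and 60, 53 and 55 rose without BA mouse 1, 2 or 3. The median log2 fold change was 1.53, and the summed values were 18691, 20972 and 17772 in BA mice and 43637 and 50234 in AV mice. Rpl38, a protein of the large subunit (ENSMUSG00000057322.12, chromosome 11 of GRCm38 from 114668524 to 114672331), had values of 171, 152 and 130.4 in BA mice and 615 and 778 in AV mice, with log2 fold change 2.19 ± 0.24 (SE) and adjusted p = 0.00319 by limma. Rpl23a was at 271, 313 and 337 in BA mice and 1154 and 1165 in AV mice. Ribosomal protein genes have many processed pseudogenes, so reads may be shared with copies. The rest of translation did not follow to this extent. Shares of calls were 18.5% for translation factors, 4.55% for mitochondrial ribosomal proteins and 9.38% for aminoacyl-tRNA synthetases. All were under the 29.7% over all genes. The higher calls of translation factors, 16.9%, were near the 13.6% over all genes. Of 65 translation factor genes 11 rose and 1 fell, with a median of 0.24, and 6, 6 and 5 rose without BA mouse 1, 2 or 3. Eif3f, a subunit of initiation factor 3, was among the higher ones, at 159.6, 157 and 173 in BA mice and 463 and 568 in AV mice. Of 66 mitochondrial ribosomal protein genes 2 rose and 1 fell, with a median of 0.29, though 15 were called without AV mouse 3 (10 higher, 5 lower) and 6 without AV mouse 1. Aminoacyl-tRNA synthetases, which charge tRNAs, gave 0 higher and 3 lower calls among 32. Without BA mouse 1 or 2 there were 0 calls, and 1 without BA mouse 3.

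Protein quality control showed divided calls. Of 38 proteasome genes 3 rose and 3 fell, and of 168 genes of ubiquitin conjugation and removal 20 rose and 24 fell, a share of calls of 26.2% against 29.7% over all genes. Without BA mouse 1, 2 or 3 the ubiquitin list had 20, 20 and 22 calls and the proteasome 3, 4 and 3, the latter 10 without AV mouse 3. Fbxl16, an F-box protein of neurons, had values of 59.5, 71.9 and 47.3 in BA mice and 718 and 834 in AV mice, with log2 fold change 3.70 ± 0.26 (SE) and adjusted p = 0.00256 by limma. Trim59, a ubiquitin ligase of the TRIM family, went the other way, at 1489, 1382 and 2079.7 in BA mice and 339 and 431 in AV mice. Among 77 chaperones 10 rose and 5 fell, and without BA mouse 1, 2 or 3 there were 6, 6 and 8 calls. Hspb1, a small heat shock protein, was at 4.01, 11.1 and 4.18 in BA mice and 63.9 and 34.1 in AV mice. Lysosomal genes numbered 49, with 5 higher and 6 lower, and without BA mouse 1, 2 or 3 the calls were 0, 1 and 2. Autophagy gave 1 higher and 6 lower calls among 33 genes, with 1 call without BA mouse 1 and 0 without BA mouse 2 or 3. The shares of calls were 15.8% for the proteasome, 19.5% for chaperones, 22.4% for lysosomal genes and 21.2% for autophagy. All were under the 29.7% over all genes, and the lower calls of autophagy, 18.2%, were near the 16.2% over all genes.

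Among genes that act in the nucleus, Zfp genes had a share of lower calls, 23.1%, above the 16.2% over all genes. The shares were 16.9% for chromatin genes, 15.6% for DNA replication and repair, 14.2% for splicing and 10.5% for RNA polymerase and Mediator, near or under that over all genes. Of 118 chromatin modifiers and remodelers 3 rose and 20 fell, with a median log2 fold change of -0.28, and 8, 10 and 9 fell without BA mouse 1, 2 or 3. Kat2b, a histone acetyltransferase (ENSMUSG00000000708.14, chromosome 17 of GRCm38 from 53566861 to 53672720), had values of 938, 973 and 889 in BA mice and 124 and 309 in AV mice, and its log2 fold change of -2.24 was -1.59 without AV mouse 1. Mbd4, a glycosylase that removes mismatched bases at methylated sites, was at 87.3, 103 and 114 in BA mice and 31.5 and 26.3 in AV mice, with log2 fold change -1.78 ± 0.23 (SE) and adjusted p = 0.00408 by limma. Zinc finger genes named Zfp, most of them DNA-binding repressors, numbered 242, of which 7 rose and 56 fell. The median was -0.28, and 22, 23 and 23 fell without BA mouse 1, 2 or 3. Zfp157 was listed at 180.4, 187 and 183 in BA mice and 32.4 and 54.1 in AV mice. Splicing factors and RNA helicases gave 9 higher and 22 lower calls among 155 genes, but 3, 7 and 4 fell without BA mouse 1, 2 or 3, while 6 rose each time, so that higher calls outnumbered lower ones without BA mouse 1 or 3. Celf5, a splicing regulator of neurons, was higher, at 15.8, 19.5 and 21.8 in BA mice and 152 and 208 in AV mice, and Rbfox2, a further one, had a log2 fold change of 2.30. Ddx17, an RNA helicase, was lower, at 4032, 3368 and 3833 in BA mice and 1586 and 1485 in AV mice. DNA replication and repair had 0 higher and 7 lower calls among 45 genes, with 0, 1 and 0 calls without BA mouse 1, 2 or 3 and 14 without AV mouse 3. RNA polymerase and Mediator subunits showed 5 higher and 9 lower among 86, and 3, 5 and 4 calls without BA mouse 1, 2 or 3. Polr2m, a subunit attached to RNA polymerase II, was at 130.3, 157 and 159 in BA mice and 423 and 405 in AV mice, and Med12, of the Mediator kinase module, at 588, 576 and 603 in BA mice and 201 and 254 in AV mice.

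Genes of the cytoskeleton and of contacts between cells were called in both directions. Of 74 genes of microtubules and their motors 13 rose and 11 fell, 32.4% in all and near the 29.7% over all genes. The share was 40.6% for actin, 53.2% for axon guidance, 38.1% for cadherins and 41.7% for matrix genes. Tuba4a, an alpha tubulin (ENSMUSG00000026202.13, chromosome 1 of GRCm38 from 75214228 to 75219865), was at 52.5, 49.8 and 60.3 in BA mice and 345 and 379.9 in AV mice, with log2 fold change 2.72 ± 0.22 (SE) and adjusted p = 0.00256 by limma. Tubb4a, a beta tubulin among the 10 genes with the highest values per kb, fell, at 13009.9, 14639.5 and 11536 in BA mice and 3867 and 4658 in AV mice, so tubulin isotypes diverged. Kif18a, a motor of mitosis, was at 43.1, 45.9 and 55.9 in BA mice and 3.07 and 12 in AV mice, and its log2 fold change of -2.75 was -1.92 without AV mouse 1. Among 64 genes of the actin cytoskeleton 18 rose and 8 fell, with 4, 3 and 7 higher without BA mouse 1, 2 or 3. Myh10, a non-muscle myosin, was at 83.5, 93.8 and 94.7 in BA mice and 353 and 344 in AV mice. Myo1d, a class I myosin, was at 1481, 1631 and 1314 in BA mice and 289.7 and 388 in AV mice, and Daam1, a formin, at 3316, 2926 and 3189 in BA mice and 1036 and 1005 in AV mice. Both of the last genes had AV values far under the BA values. Axon guidance genes numbered 47, with 15 higher and 10 lower, and 8 in each direction without BA mouse 2. Plxna4, a semaphorin receptor, was at 83.0, 60.6 and 64.3 in BA mice and 301 and 415 in AV mice, and Efnb3, an ephrin ligand, at 1895, 2122 and 1656 in BA mice and 205 and 529.8 in AV mice. For Efnb3 the log2 fold change of -2.51 was -1.83 without AV mouse 1. Cadherins and protocadherins had 12 calls in each direction among 63 genes, and 10, 12 and 11 calls in all without BA mouse 1, 2 or 3. Pcdh9 fell from 5272, 5814 and 5961 in BA mice to 1384 and 1847 in AV mice. Of 72 genes of matrix, integrins and metalloproteases 14 rose and 16 fell. The number that rose was 9 without BA mouse 1, 8 without BA mouse 2 and 25 without AV mouse 3. Col1a2, a collagen chain made by fibroblasts, was at 14, 18.1 and 12.1 in BA mice and 176 and 78.8 in AV mice, and Adam1a, a protease-related protein that shares its exons with another model on the same strand, at 399, 328 and 231 in BA mice and 53.3 and 57.1 in AV mice.

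Membrane transport genes were called in shares near or under the 29.7% over all genes, 33.9% for solute carriers and 18.9% for Rab and coat proteins. Of 174 solute carriers 23 rose and 36 fell, and 28, 27 and 36 were called without BA mouse 1, 2 or 3. Slc12a5, the chloride exporter KCC2 of mature neurons (ENSMUSG00000017740.17, chromosome 2 of GRCm38 from 164960802 to 164999731), had values of 33.5, 30.1 and 22.9 in BA mice and 133 and 147 in AV mice, with log2 fold change 2.26 ± 0.25 (SE) and adjusted p = 0.00319 by limma. Slc25a22, a mitochondrial glutamate carrier, was at 43.7, 30.5 and 40.5 in BA mice and 163 and 170.2 in AV mice. Slc25a13, the mitochondrial aspartate and glutamate carrier citrin, fell, at 137, 208 and 155 in BA mice and 4.95 and 27.4 in AV mice, and its log2 fold change of -3.67 was -2.54 without AV mouse 1. Carriers of related substrates therefore moved apart. Rab and coat proteins gave 16 higher and 19 lower calls among 185 genes, with 14, 17 and 19 calls without BA mouse 1, 2 or 3, led by Arf3, at 181, 287 and 213 in BA mice and 1062 and 1429 in AV mice, and Rab3c, a Rab of synaptic vesicles, at 61.5, 66.9 and 56.0 in BA mice and 339.8 and 253 in AV mice. Of 23 genes of cholesterol synthesis and uptake 0 were called by limma. The groups did not overlap for 9 of them, 2 higher (8.70%) and 7 lower (30.4%), against 27.7% and 31.3% over all genes. The gene with the largest change was Srebf1, a transcription factor of lipid synthesis, at 948, 812 and 835 in BA mice and 299 and 623 in AV mice, with log2 fold change -1.0 ± 0.34 (SE) and adjusted p = 0.0640 by limma. At an unadjusted p under 0.05 the count was 1.

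Immune genes did not move one way. Of 49 genes of cytokines, chemokines and NF-kB 4 rose and 14 fell, with a median log2 fold change of -0.33, and 9, 10 and 10 fell without BA mouse 1, 2 or 3. Il18bp, a secreted inhibitor of interleukin-18 (ENSMUSG00000070427.4, chromosome 7 of GRCm38 from 102014885 to 102018690), was listed at 78.9, 63.2 and 48.7 in BA mice and 5.43 and 8.66 in AV mice, with log2 fold change -3.01 ± 0.30 (SE) and adjusted p = 0.00304 by limma. Cxcl14, a chemokine made in many tissues, was higher, at 112, 76.9 and 122 in BA mice and 255 and 376 in AV mice. Of 23 genes of MHC class I, complement and interferon 3 rose and 5 fell, and 4, 5 and 4 were called without BA mouse 1, 2 or 3. Lower calls made up 28.6% of the cytokine list and 21.7% of the MHC list, against 16.2% over all genes. Higher calls made up 8.16% and 13.0%, against 13.6% over all genes. H2-DMb2, counted in this list though it helps to load peptides on MHC class II, was at 19.9, 15.0 and 22.2 in BA mice. Its values of 3.87 and 2.64 in AV mice were near the lowest of any gene in these mice, 1.57 and 1.43. C1qa, a complement chain made by microglia, was at 43.5, 30.5 and 49.4 in BA mice and 102 and 162 in AV mice. The median of this list was 0.21, and -0.10 without AV mouse 3. Microglia markers moved beside the higher genes. Cx3cr1, the fractalkine receptor, was at 176, 167 and 261 in BA mice and 357 and 620.0 in AV mice, and all 4 listed microglia markers rose, 2 without BA mouse 1, without BA mouse 2 or without AV mouse 3. Cx3cr1 was not called in any of these 3 fits. The other 14 markers of microglia in the list were not among the genes analysed here, and the part of microglial RNA in the immune lists was not tested.

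Receptors of sensory epithelia formed the functional list with the lowest median. Of 118 olfactory, vomeronasal and taste receptor genes 80 fell (67.8%) and 1 rose, and for 93 (78.8%) both AV mice lay under every BA mouse. The shares over all genes were 16.2% called lower and 31.3% with both AV mice under every BA mouse. The median log2 fold change of the list was -1.60, with -1.57 in AV mouse 1 and -1.60 in AV mouse 3. The number that fell was 56, 62 and 58 without BA mouse 1, 2 or 3. The olfactory and vomeronasal receptors among them detect odours and pheromones in the nose. Summed over the list, values were 28290.3, 22018 and 32582 in BA mice and 12611 and 9434 in AV mice. Olfr1120 (ENSMUSG00000081234.3, chromosome 2 of GRCm38 from 87354815 to 87361786) was listed at 46.2, 41.0 and 52.1 in BA mice and 6.0 and 5.90 in AV mice, with log2 fold change -2.76 ± 0.22 (SE) and adjusted p = 0.00256 by limma, and Vmn2r89 is described above. Vmn2r66 was the gene that rose, at 73.2, 54.0 and 66.3 in BA mice and 173 and 122 in AV mice, and it was not called without BA mouse 2 or 3. Genes of these families are close paralogs, so the assignment of reads among them is uncertain.

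Genes of growth factor signalling were called in both directions, with more higher than lower calls. Of 67 genes of the MAP kinase cascade 14 rose and 8 fell, and higher calls were 7, 4 and 9 without BA mouse 1, 2 or 3. Mapk8ip2, a scaffold of JNK signalling in neurons, was at 52.3, 54.8 and 50.4 in BA mice and 229 and 267 in AV mice. Dusp15, a phosphatase of oligodendrocytes, was at 335, 305 and 242 in BA mice and 38.3 and 71.4 in AV mice. Of 53 genes of PI3K, Akt, mTOR, phospholipase C and protein kinase C 12 rose and 10 fell, and 15, 14 and 15 were called without BA mouse 1, 2 or 3. Prkce, a protein kinase C that needs no calcium, had values of 63.2, 79.5 and 66.6 in BA mice and 406 and 519 in AV mice, and Pik3c2b, a class II phosphoinositide 3-kinase, 2110.5, 2009 and 1562 in BA mice and 259 and 407 in AV mice, with log2 fold change -2.53 ± 0.28 (SE) and adjusted p = 0.00328 by limma. Shares of calls in both lists, 32.8% and 41.5%, stood beside 29.7% over all genes. Higher calls made up 20.9% of the MAP kinase list and 22.6% of the PI3K list, against 13.6% over all genes. Lower calls made up 11.9% and 18.9%, against 16.2%.

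Genes outside these lists changed as well. Of 7301 genes in none of the 45 functional lists 893 rose and 1188 fell, 28.5% in all, against 33.2% of the 2571 genes in a list. Protein-coding genes were 9677 of the 9872, and 1330 of them rose and 1529 fell. Of the 188 listed pseudogenes 6 rose (3.19%, against 13.6% over all genes) and 66 fell (35.1%, against 16.2%). In all, called or not, 59 had a positive and 129 a negative log2 fold change. Their median log2 fold change was -0.55, and it was -0.24 in AV mouse 1 and -0.87 in AV mouse 3. Among 124 processed pseudogenes, copies of mRNAs placed back into the genome, 41 fell (33.1%) and 1 rose (0.806%). Reads of a pseudogene cannot always be told from those of its parent gene. Across autosomes the share of called genes lay between 24.6% on chromosome 3 and 34.4% on chromosome 7. On the X chromosome 53 of 332 genes rose (16.0%, near the 13.6% over all genes). On it 32 fell (9.64%, against 16.2%), and the median was 0.17. The share called on X in all, 25.6%, lay within the range of the autosomes. Y-linked Ddx3y, an RNA helicase, was at 625, 677 and 854 in BA mice and 291 and 416 in AV mice, Uty, a histone demethylase relative, at 531, 409.9 and 567 in BA mice and 205 and 318 in AV mice and Eif2s3y, an initiation factor subunit, at 342, 378 and 469 in BA mice and 225 and 211 in AV mice. These genes were present in all 5 mice and called lower in AV mice, though none of them without BA mouse 1, 2 or 3. Kdm5d, a further histone demethylase on Y, was at 400.0, 364 and 447 in BA mice and 297 and 240.4 in AV mice and was not called.

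Base composition and length went along with the direction of change. In the quintile of genes with the lowest GC content of the longest transcript, from 31.0% to 43.2%, 158 genes rose and 407 fell. In the quintile with the highest, from 54.7% to 69.1%, 419 rose and 229 fell. The median log2 fold change was -0.20 in the first and 0.21 in the second, and the difference was present in both AV mice, from -0.08 to 0.18 in AV mouse 1 and from -0.34 to 0.27 in AV mouse 3. The steps from quintile to quintile were also found without the genes of the energy and translation lists, from -0.22 to 0.19, and without those of the synapse and marker lists, from -0.21 to 0.19. In the upper tertile of expression levels the range was narrower, from -0.26 to -0.02. Exonic length ran the other way. The shortest quintile had a median of 0.21 with 340 higher and 235 lower calls, and the longest -0.19 with 274 and 407. Without the energy and translation lists, which hold many short genes, the shortest quintile was at 0.13. Length and level were entangled, since in the lower tertile of levels the longest quintile, 201 genes, had a median of 0.47. Gene span, introns included, gave the most calls at its upper end, with 401 higher and 338 lower calls among the 1974 longest genes. For the 416 of these in the lower tertile of levels 131 rose and 34 fell, and for the 1024 in the upper tertile 128 rose and 246 fell.

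**Figure D5:**
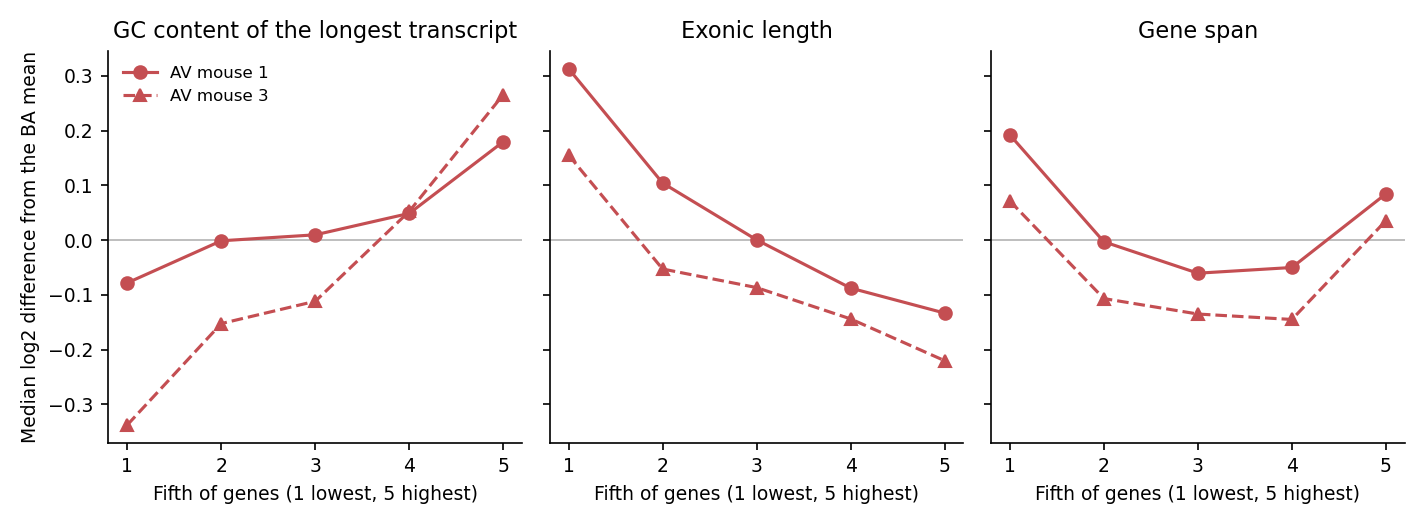
Median log2 difference of each AV mouse from the BA mean in quintiles of genes by GC content of the longest transcript, exonic length and gene span, from lowest (1) to highest (5). In both AV mice the medians climb with GC content, from -0.08 to 0.18 in AV mouse 1, and descend with exonic length.

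Promoters of the called genes were read next to these properties. RefSeq gives a window from 250 bases before to 50 after the start (GRCm38.p6) for 7714 of the listed genes on the annotated chromosome and strand, 1022 called higher and 1207 called lower. CpG dinucleotides, which mark broad promoters of widely used genes, numbered a median of 22 per window over these genes, 22 for higher and 20 for lower genes. In the quintile of windows with the fewest, up to 12, 229 genes rose and 361 fell, and in the quintile with the most, 33 or more, 236 rose and 196 fell. Sensory receptors, with a median of 1, supplied part of the first quintile. Without them the lowest quintile, then up to 13 CpG, held 250 higher and 300 lower calls. Motifs were searched on both strands as the TATA box (TATAAA), the GC box (GGGCGG), the CCAAT box, the cAMP response element (TGACGTCA), an E-box (CAGATG) and the NRF1 motif (a palindrome of 10 letters), and matches of different motifs can share bases. CCAAT was found in 32.1% of windows of higher genes, 38.3% of those of lower genes, 39.1% over the listed genes and 37.4% of all 32851 windows. GGGCGG was found in 66.5% and 61.3% of windows of higher and lower genes, 66.8% over the listed genes and 35.7% of all windows. For TATAAA the shares were 7.34%, 8.04%, 6.56% and 13.6%, for CAGATG 11.9%, 13.8%, 10.9% and 17.2%, for TGACGTCA 3.23%, 2.57%, 3.36% and 1.79%, and for the NRF1 motif 1.96%, 1.91%, 2.19% and 0.971%. The widest gap between called and listed genes was that of CCAAT among higher genes. The NRF1 motif, bound by a regulator of respiratory genes, was in 15.4% of the 26 windows of respiratory complexes II to V, 3.03% of the 33 windows of complex I and 0 of the 20 windows of the tricarboxylic acid cycle. A match is a description of letters and not a binding site.

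Windows of 4 genes are shown, a pair that rose and a pair that fell, since they contrast synaptic and energy genes with genes of myelin. These genes were picked as examples and do not stand for all called genes. The NRF1 motif, present in the pair that rose, was in 1.96% of windows of higher and 1.91% of lower genes. Capitals mark the searched motifs, and each line reads 5′ to 3′ in the direction of the gene. They lie at chr9:108190334-108190633 on the minus strand for Bsn, chr5:115348909-115349208 on the minus strand for Cox6a1, chr2:127656646-127656945 on the minus strand for Mal, a proteolipid of compact myelin, and chr3:31149670-31149969 on the plus strand for Cldn11, the claudin of myelin tight junctions.
Bsn: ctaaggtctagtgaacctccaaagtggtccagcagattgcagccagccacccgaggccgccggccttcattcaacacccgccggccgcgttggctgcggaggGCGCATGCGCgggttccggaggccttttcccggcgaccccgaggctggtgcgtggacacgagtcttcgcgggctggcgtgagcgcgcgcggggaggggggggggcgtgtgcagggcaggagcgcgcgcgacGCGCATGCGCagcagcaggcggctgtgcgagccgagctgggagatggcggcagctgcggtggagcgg
Cox6a1: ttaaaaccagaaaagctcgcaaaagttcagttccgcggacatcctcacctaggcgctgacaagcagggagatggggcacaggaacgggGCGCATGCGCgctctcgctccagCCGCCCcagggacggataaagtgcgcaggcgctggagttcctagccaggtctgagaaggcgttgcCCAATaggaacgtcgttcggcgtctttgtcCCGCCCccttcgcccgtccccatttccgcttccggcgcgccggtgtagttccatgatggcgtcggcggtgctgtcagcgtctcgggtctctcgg
Mal: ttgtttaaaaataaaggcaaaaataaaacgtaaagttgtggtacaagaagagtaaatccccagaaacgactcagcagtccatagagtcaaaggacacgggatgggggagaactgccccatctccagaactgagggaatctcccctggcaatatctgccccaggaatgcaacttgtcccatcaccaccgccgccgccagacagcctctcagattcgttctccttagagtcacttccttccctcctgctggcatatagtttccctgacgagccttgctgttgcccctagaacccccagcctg
Cldn11: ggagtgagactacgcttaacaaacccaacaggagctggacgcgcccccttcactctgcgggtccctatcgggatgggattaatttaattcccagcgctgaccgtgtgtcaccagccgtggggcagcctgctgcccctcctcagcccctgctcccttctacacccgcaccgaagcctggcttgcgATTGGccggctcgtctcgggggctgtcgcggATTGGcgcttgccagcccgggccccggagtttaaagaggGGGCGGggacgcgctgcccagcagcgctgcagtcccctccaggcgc

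The Bsn window held the NRF1 motif 2 times and 38 CpG, and that of Cox6a1 held it once, beside GC boxes, a CCAAT box and 32 CpG. The Mal window held none of the searched motifs and 8 CpG, and that of Cldn11 held 24 CpG with CCAAT and GC boxes. In expression, Bsn and Cox6a1 have been given above. Mal was listed at 12323, 13425 and 12189 in BA mice and 2849 and 4606 in AV mice, with log2 fold change -1.80 ± 0.27 (SE) and adjusted p = 0.00521 by limma. Cldn11 had values of 8937, 10129 and 7623 in BA mice and 2193 and 3300.1 in AV mice, with log2 fold change -1.72 ± 0.27 (SE) and adjusted p = 0.00606 by limma. Both myelin genes had AV values under every BA value.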

How the data were processed

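RNA of YFP-positive, propidium iodide-negative cells sorted from the amygdala of single mice was made into stranded libraries with an ultra-low input kit and sequenced paired-end. The authors quantified reads with Salmon and deposited a normalized signal per gene; their methods name TMM scaling, a filter on low counts and ARSyN, a correction that removes variation not explained by the groups. The submitters' processing notes name bcl2fastq 2.20, Salmon 1.2 and GRCm38.p6. The sources used here do not state whether ARSyN was applied to these values. Such a correction, and the removal of 1 AV mouse after a principal component analysis, can lower the spread within groups and so raise the number of calls. The deposited values are no read counts, so their depth is unknown.

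From the deposited signal, log2(value + 1) was fitted with limma 3.58.1 (R 4.3.3), AV against BA, without a block, with Benjamini-Hochberg adjustment over all 9872 genes and a threshold of 0.05. A fold change on this scale understates the change of low genes. Tables and figures were made with matplotlib 3.10.9, pandas 2.3.3 and numpy 2.4.6 under Python 3.11.15, and overlaps of gene models bedtools 2.31.1. Of the 9872 identifiers 9871 matched GENCODE M21. The fit was tested on simulated data with known changes. Named genes were the 2 called protein-coding genes with the widest gap between groups in each direction and quintile of level, up to 2 per direction in each list (where none was called, the member with the largest change), up to 3 markers with the highest values per list, the sex-linked list and the 10 genes highest per kb. Some genes that this rule names are not reported here. The members and lists were chosen with earlier results of these data known. Alternatives were other pseudocounts, a filter, centring, quantile normalization, a variance prior following the mean, a stricter threshold, a minimum change, a replicate block and leaving out each mouse.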

Additional observations from a re-analysis of the deposited data

How the results depend on the processing

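With 2 AV mice and an unknown depth, p-values rest on the variance that limma shares across genes. The number of calls moved more with the mice than with the scale. Leaving out 1 mouse at a time gave 1521 to 3497 calls, 704 to 1588 higher and 811 to 1909 lower, and groups that did not overlap for 6401 to 7930 genes, since fewer mice overlap less often. At an adjusted p under 0.01 limma made 1151 calls, 526 higher and 625 lower. With the replicate number as a block 970 genes were called, 465 higher and 505 lower. The numbers were not taken as a pairing, since only 2 are shared and the labels say nothing of it. Deviations of same-numbered mice had a correlation across genes of -0.060 for replicate 1 and -0.039 for replicate 3. With 2 AV mice their deviations from the AV mean are mirror images, so these values cannot decide on a pairing. Other pseudocounts, the filter on low values, centring, quantile normalization, a variance prior following the mean and a minimum change kept each of these counts within 1.5 times. The threshold, minimum change, prior and block have no bearing on overlap and gave no value for it. Of 2567 alternatives for named genes 2316 kept the direction and the side of the threshold, 235 lost the call and 16 gained one, and none reversed. Of 611 alternatives for medians of lists 497 stayed within the spread between mice, and 10 of 51 medians changed sign under at least 1 of them.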

Other observations

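Among the cell types that the comparison of neurons does not address, the genes listed as markers of oligodendrocyte precursors were divided. Of 6 listed markers 2 were called higher, Pdgfra and Lhfpl3, and 3 lower, Olig1, Olig2 and Sox10. C1ql1 had a log2 fold change of 1.59 and was not called. In all 2 were called without BA mouse 1 or without BA mouse 2. Since Sox10 belongs to the whole lineage, the list is not particular to precursors, and the split is one of genes. Pdgfra, the receptor of PDGF on these cells, was at 367, 388 and 225 in BA mice and 744 and 1685 in AV mice and Sox10, a transcription factor of the whole lineage, at 1716, 1514 and 1279 in BA mice and 222 and 556 in AV mice. Both had AV values apart from every BA value. For Sox10 the log2 fold change of -2.08 was -1.42 without AV mouse 1. Of 4 listed markers of mural cells and fibroblasts 2 were called higher, and of 5 markers of endothelial cells 1 was called lower.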
